A study of Homo sapiens with 18 samples.

Results

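Cultures of NCI-H295R cells treated with STA9090 and PIK75 together were compared with cultures treated with PIK75 alone, to describe what STA9090 added in the presence of PIK75. These are 6 of the 18 libraries of the study, 3 for each group, chosen by their labels, and every gene with enough counts was kept, which left 15787 of 58870 genes. NCI-H295R, an established human cell line from an adrenocortical carcinoma, secretes steroid hormones. STA9090 (ganetespib) inhibits the chaperone HSP90, PIK75 inhibits the PI3K catalytic subunit p110-alpha, and BGT226 inhibits PI3K and mTOR. Beside the pair compared, untreated cells, STA9090 alone, BGT226 alone and BGT226 with STA9090 were used, each with 3 biological replicates of the same line, and treatments lasted 48 h at a stated 20 nM. Which vehicle was used, and how much of either drug a combination held, was not found in the labels. Whether both groups of the pair received the same amount of PIK75 is therefore not known. RNA was total RNA depleted of ribosomal RNA, and a value is a count per gene scaled to a library of 1 M (CPM).

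HSP90 is an abundant chaperone that completes the folding of many kinases, receptors and transcription factors, its clients, with the help of co-chaperones. It also restrains HSF1, the transcription factor of the heat shock response, and HSP90 inhibitors are known to raise the transcripts of inducible chaperones. PI3K passes signals from insulin and IGF receptors to AKT and mTOR, which promote growth and lipid synthesis and hold back the FOXO transcription factors. Adrenocortical cells take up and make cholesterol, and enzymes of mitochondria and endoplasmic reticulum turn it into steroids.

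Totals of the 6 libraries ran from 12.19 to 13.52 M counts, and abundant RNA polymerase III transcripts took 35.9% to 40.3% of the counts in STA9090+PIK75 and 35.1% to 38.9% in PIK75. The first principal component of the 6 libraries, with 55.8% of the variance, separated the groups. PIK75 replicate 3 stood apart from its group in the GC content of what was counted. Over 9771 protein-coding genes, the Spearman correlation of its deviation from the mean of all libraries with transcript GC content was 0.525, against 0.145 and 0.0983 in the other PIK75 libraries. Outside the pair, the same correlation was -0.593 in STA9090 replicate 1, against -0.122 and 0.0668 in the rest of its group. It was 0.406 in untreated replicate 2, against -0.00372 and 0.0364. Defining markers of adrenocortical cells were present in all 6 libraries, with a summed level of 1010 to 1130 CPM in PIK75 and 763 to 793 in STA9090+PIK75 over 8 markers. Markers of leukocytes, endothelium and other epithelia summed to at most 2.42 CPM in any library.

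Adding STA9090 changed 3993 genes at an adjusted p under 0.05 in edgeR's quasi-likelihood test, 25.3% of those tested. Of these, 1784 (11.3%) were higher and 2209 (14%) were lower in STA9090+PIK75. Most differences were modest: 179 of the higher and 249 of the lower genes differed by at least 2-fold, and the median log2 fold change over all genes was 0.00459. All 3 STA9090+PIK75 libraries lay above all 3 PIK75 libraries in 19.4% of the genes, and below them in 20.6%. Without PIK75 replicate 3 there were 1379 higher and 1861 lower genes. Because RNA came from whole cultures, fewer cells that make a transcript and less of it per cell cannot be told apart.

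**Figure D1:**
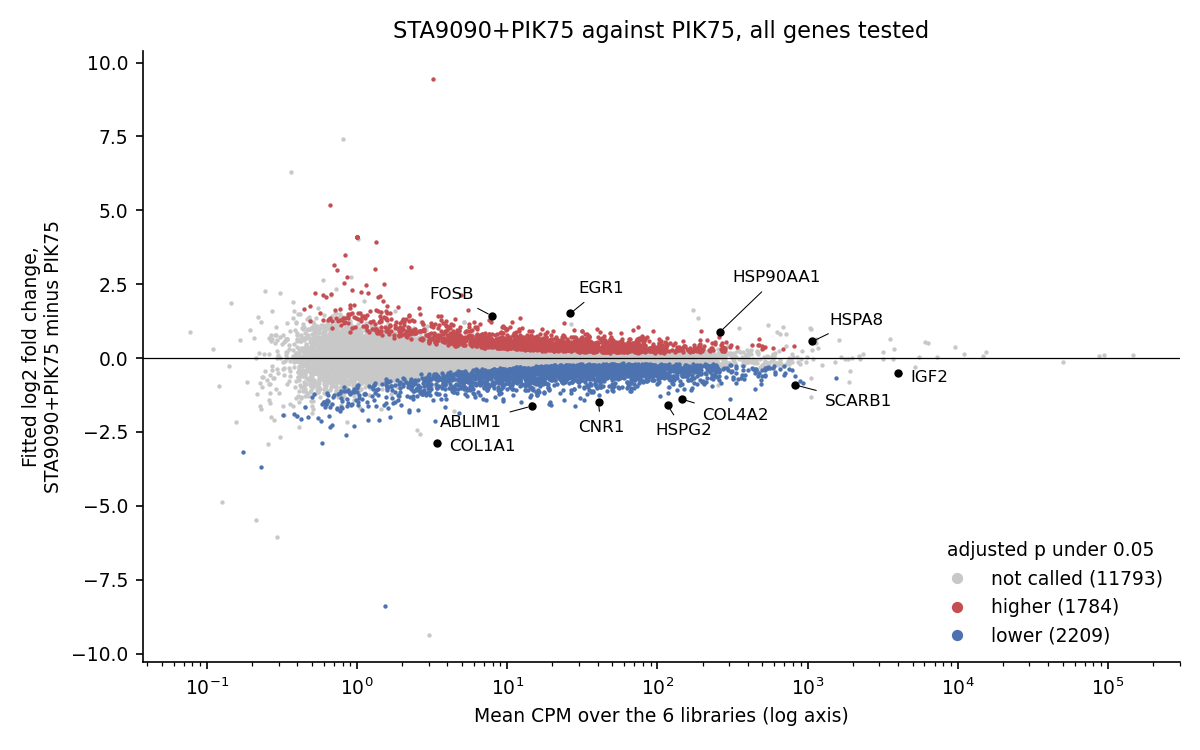
Fitted log2 fold change of STA9090+PIK75 minus PIK75 (vertical axis) against the mean CPM over the 6 libraries (horizontal log axis), 1 point a gene. Red and blue points are the 1784 genes called higher and the 2209 called lower, and 1 gene without a count in these libraries is not drawn. Labelled genes are described in the text.

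Many cytosolic chaperones rose. Of 24 inducible heat shock genes tested, 14 were higher and 0 lower, with a median log2 fold change of 0.367. Of 21 genes for HSP90 and its co-chaperones, 13 were higher and 0 lower (median 0.423). A list of 14 genes was named for TRiC, the ring that folds actin and tubulin, but is wider than its subunits. Of these genes 11 were higher and 0 lower (median 0.383). HSP90AA1 is a member of both of the first lists. These counts stand against 11.3% of all genes called higher, and the counts of lower genes in other lists against 14% called lower. Lists and members were chosen with earlier results of these data known, so such comparisons are descriptions and not independent tests. PIK75 against untreated cells had 6 of the 24 heat shock genes lower and 2 higher, where 10.2% of all genes were lower and 8.49% higher. It had 4 of the 21 HSP90 and co-chaperone genes lower and 0 higher. These comparisons share the PIK75 libraries with the rises.

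The heat shock list names genes whose promoters can carry heat shock elements, the sites bound by HSF1, and promoter sequences show which of them do in a short window. Promoters from RefSeq (GRCh38.p14), 250 bases before to 50 after the start of transcription, were searched on both strands for 3 adjoining units of the element, GAANNTTCNNGAA or TTCNNGAANNTTC. The motif was in 0.487% of 27305 promoters, and in 5 of the 22 heat shock genes with a promoter sequence, 3 of the 14 higher genes and 2 of the 8 not called. It was in 0 of 15 HSP90 co-chaperone promoters and 0 of 12 promoters of the list named for TRiC. To show the element in place, the stretches of HSPA8 and CHORDC1, a pair of higher genes, are shown 5′ to 3′ on the strand of the gene, with the motif in capitals. CHORDC1 was picked for its promoter after its values were seen.
HSPA8, chr11:123062334-123062386, minus strand: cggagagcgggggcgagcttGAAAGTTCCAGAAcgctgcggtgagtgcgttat
HSPA8, chr11:123062159-123062211, minus strand: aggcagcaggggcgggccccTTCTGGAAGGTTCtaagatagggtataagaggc
CHORDC1, chr11:90223067-90223129, minus strand: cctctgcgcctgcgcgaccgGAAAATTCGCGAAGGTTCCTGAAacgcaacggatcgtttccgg

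HSP90AA1 (ENSG00000080824.18, hg38 chr14:102080738-102139699, minus strand), the inducible form of HSP90, had 178, 181 and 192 CPM in the PIK75 libraries and 325, 355 and 338 in STA9090+PIK75. The groups were far apart, with a fitted rise of 0.89 on the log2 scale (SE 0.0996, adjusted p 1.95e-06, edgeR), 1.85-fold. Its constitutive sister HSP90AB1 had 614, 613 and 552 CPM against 685, 680 and 714. These do not overlap, but the difference of 0.22 missed the threshold (adjusted p 0.0703, edgeR), while DESeq2 (adjusted p 0.0123) and leaving out the 50 most counted genes (adjusted p 0.03) put it past. HSPA8 (ENSG00000109971.14, chr11:123057489-123063230), the constitutive HSP70 that hands clients to HSP90, went from 849, 895 and 867 CPM to 1370, 1258 and 1230. That is a rise of 0.56 (SE 0.0846, adjusted p 5.53e-05, edgeR). The small heat shock protein HSPB1 went from 121, 119 and 164 CPM to 272, 254 and 232, the largest rise among the named chaperones at 0.90 (adjusted p 2.23e-05, edgeR). PIK75 replicate 3 was the highest of its group for HSPB1 and still below every STA9090+PIK75 library. Untreated cells had a mean of 200 CPM of HSPB1, and PIK75 was below them by 0.57 (adjusted p 0.00295, edgeR). Part of its rise is thus a return toward the untreated level. The untreated means were 182 CPM for HSP90AA1 and 989 for HSPA8.

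HSPH1, an exchange factor for HSP70, had 29 ± 1.43 CPM (SD, n = 3) in PIK75 and 53.6 ± 5.95 in STA9090+PIK75, a log2 difference of 0.88. STIP1, which bridges HSP70 and HSP90, had 196 ± 15.8 and 320 ± 22.7 CPM (0.71). The J-domain co-chaperones DNAJC7 and DNAJB1, which deliver substrates to HSP70, rose by 0.61 and 0.35. HSPA1A, the classic inducible HSP70, had 37.5 ± 3.58 and 60.8 ± 6.42 CPM (0.70), but its reads can be divided with its near-identical copy HSPA1B and its value is uncertain. Untreated cells had a mean of 51.2 CPM of HSPA1A and 25.3 of HSPH1. The mitochondrial HSP90 paralogue TRAP1 rose by 0.52, and CHORDC1, an HSP90-binding protein, by 0.56. Not every member moved: BAG3, another HSP70 exchange factor, had 35.8 ± 4.8 and 36.3 ± 1.46 CPM (difference 0.02, adjusted p 0.877, edgeR). HSF1 itself had 45.9 ± 7.48 and 48.6 ± 3.17 CPM (0.08, adjusted p 0.642, edgeR), though with each library's trend on transcript GC content taken out, an alternative chosen after seeing the data, its difference was 0.33 (adjusted p 0.00067). Among TRiC subunits CCT6A went from 71.0, 76.7 and 65.8 CPM to 107, 101 and 110 (0.57, SE 0.0717), TCP1 rose by 0.50, CCT5 by 0.39 and CCT2 by 0.35, and in each of the 4 the groups did not overlap.

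**Figure D2:**
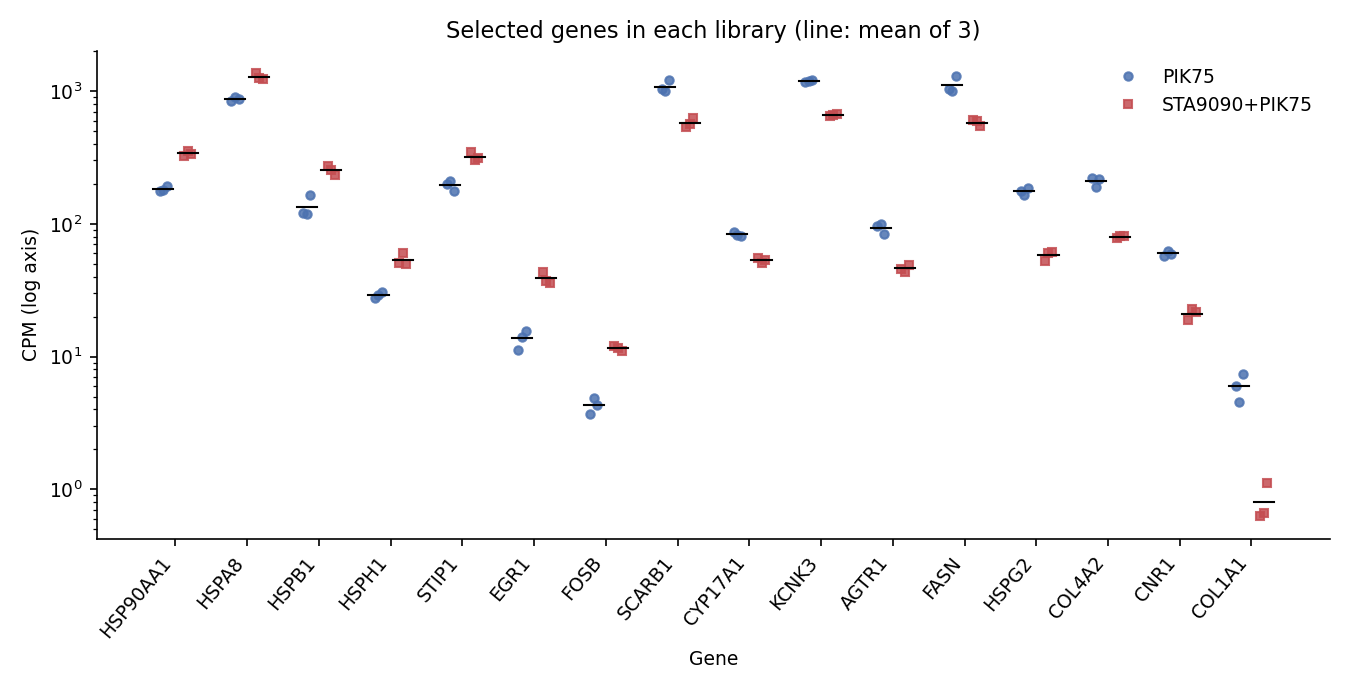
CPM (log axis) of 16 genes in each of the 3 PIK75 libraries (blue circles) and the 3 STA9090+PIK75 libraries (red squares), with the mean of each group as a line. The 7 chaperone and immediate early genes at the left lie higher in every STA9090+PIK75 library, and the 9 genes at the right lie lower.

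Other parts of protein homeostasis did not all follow. The proteasome, which degrades ubiquitin-tagged proteins, had 12 of 34 subunit and regulator genes higher and 0 lower (median 0.197). PIK75 against untreated cells had 16 of the 34 lower and 0 higher (median -0.249), where 10.2% of all genes were lower. The rise is thus from a level below that of untreated cells for many of these genes, and the PIK75 libraries are shared by both comparisons. PSMB7, a catalytic subunit, had 93.2, 94.5 and 88.4 CPM in PIK75 and 140, 136 and 127 in STA9090+PIK75, a rise of 0.54 (adjusted p 5.19e-05, edgeR). PSMB6, also a catalytic subunit, rose by 0.44. Chaperones of the endoplasmic reticulum went the other way, with 1 of 21 higher and 6 lower (median -0.182), and 10 lower with GC content taken out. HSPA5, the main HSP70 of that compartment, had 263, 255 and 289 CPM against 218, 230 and 215, a fall of 0.28 on the log2 scale (adjusted p 0.00888, edgeR). EDEM1, which sends misfolded glycoproteins to degradation, fell by 0.71, and HERPUD1, a part of the same route, by 0.34. Mean CPM in untreated cells, PIK75 and STA9090+PIK75 was 110, 142 and 112 for HERPUD1, 26.8, 30.1 and 18.3 for EDEM1, and 316, 269 and 221 for HSPA5.

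Ribosomal proteins, aminoacyl-tRNA synthetases and ATF4 targets were more often higher than lower, where 11.3% of all genes were higher and 14% lower. Among cytosolic ribosomal proteins and elongation factors 13 of 37 were higher and 0 lower (median 0.191), but 6 without STA9090+PIK75 replicate 1 and 8 without PIK75 replicate 1. RPL4, a protein of the large subunit, had 689, 748 and 658 CPM against 927, 902 and 918 (0.39, adjusted p 0.00209, edgeR). Of 20 aminoacyl-tRNA synthetases 7 were higher and 1 lower. WARS, which charges tryptophan, rose by 0.66 (adjusted p 4.38e-06) and MARS, which charges methionine, by 0.62 (adjusted p 2.4e-05, both edgeR). Targets of ATF4, the factor of amino acid and integrated stress responses, had 9 of 23 higher and 4 lower. ASNS, which makes asparagine, had 34.4, 37.3 and 32.8 CPM in PIK75 and 62.9, 61.7 and 61.9 in STA9090+PIK75 (0.84, SE 0.118). The serine synthesis enzyme PSAT1 rose by 0.75 and the cystine transporter SLC7A11 by 0.97. Amino acid transporters as a list, to which SLC7A11 also belongs, had 2 of 16 higher and 2 lower (median -0.000703), near the shares of all genes. The nucleolar protein NPM1, of the ribosome biogenesis list with 8 of 24 higher and 3 lower, rose by 0.39.

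**Figure D3:**
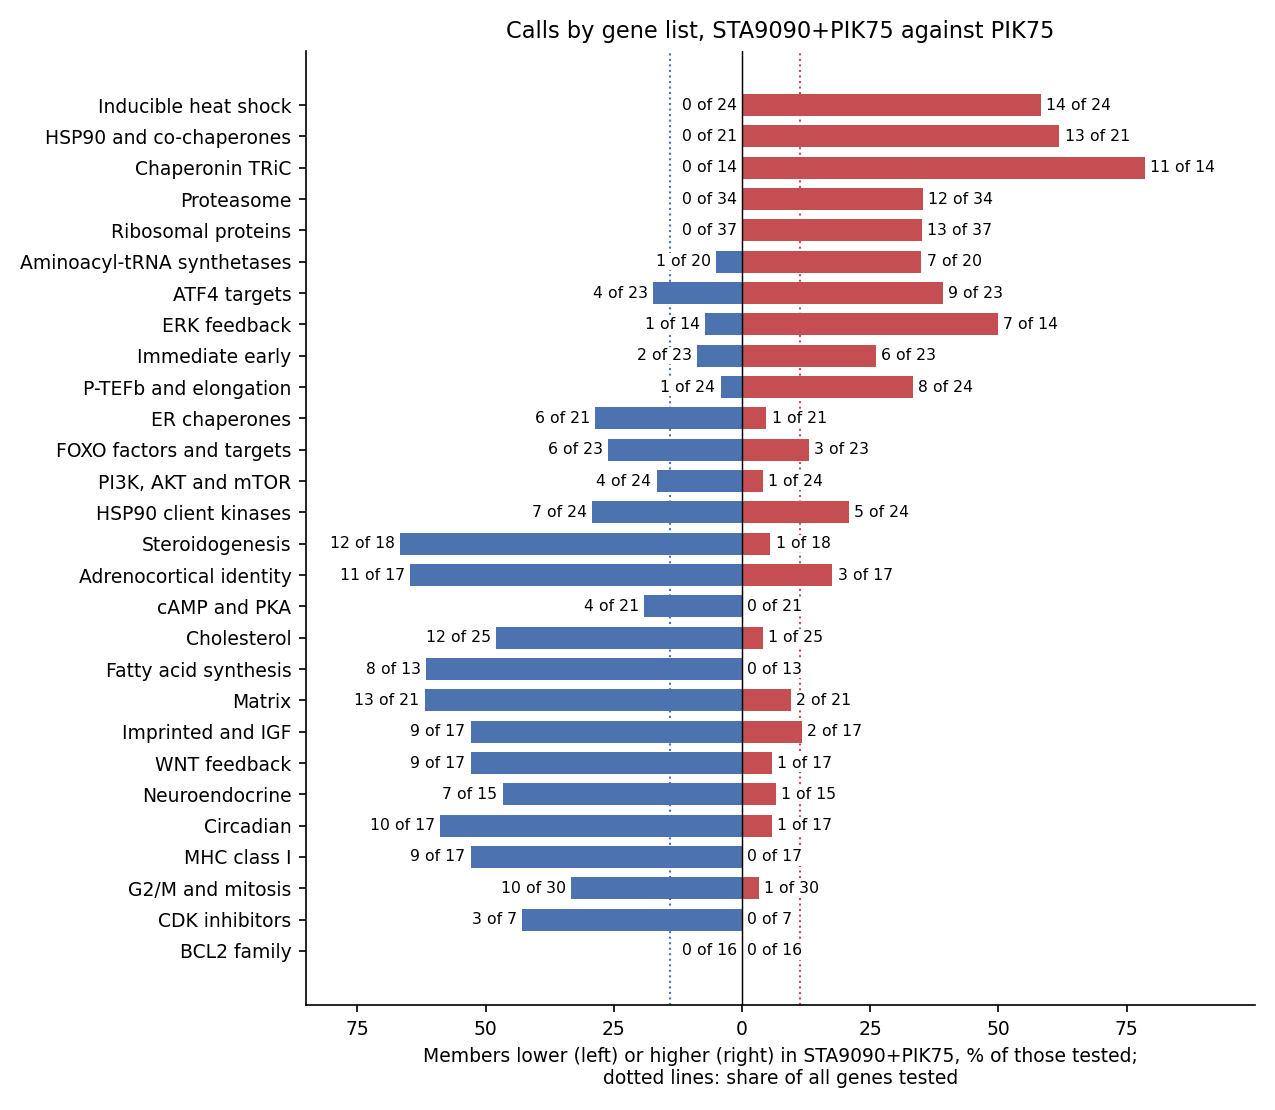
Share of the tested members of each gene list called higher (red, to the right) or lower (blue, to the left) in STA9090+PIK75, with the counts beside each bar. Dotted lines mark the 11.3% and 14% of all genes called higher and lower. The bars of TRiC and both heat shock lists reach farthest to the right, and those of steroidogenesis, adrenocortical identity, matrix and fatty acid synthesis farthest to the left.

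Immediate early genes, switched on by growth factor signals within minutes, held the largest rise among non-overlapping protein-coding genes that averaged 5 CPM or more over the 6 libraries. EGR1 (ENSG00000120738.8, chr5:138465490-138469315, plus strand), a zinc finger factor of this class, had 11.3, 14.1 and 15.7 CPM in PIK75 and 43.6, 37.4 and 36.0 in STA9090+PIK75. Every STA9090+PIK75 library was more than 2-fold above every PIK75 library, and the fitted rise was 1.51 (SE 0.13, adjusted p 9.24e-08, edgeR), 2.85-fold. FOSB, an AP-1 subunit, had 3.69, 4.88 and 4.31 CPM against 12.0, 11.6 and 11.0 (1.43, SE 0.141, adjusted p 4.5e-07, edgeR). The class did not move as 1 block: 6 of 23 were higher and 2 lower, 3 were higher without STA9090+PIK75 replicate 1, and 10 with GC content taken out. MYC had 97.7, 105 and 121 CPM against 70.6, 71.4 and 70.0, a fall of 0.61 (adjusted p 8.18e-05, edgeR). FOSL2, an AP-1 subunit related to FOSB, had 129 ± 1.8 CPM in PIK75 and 70.5 ± 0.781 in STA9090+PIK75, and fell by 0.87. Its level in untreated cells was 46.0 CPM, below both.

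Serum response elements, the sites through which ERK signalling drives such genes, contain the CArG box. That box was in 1.29% of the promoters and in 1 of 20 immediate early promoters, that of EGR1, which holds it at both of the stretches shown, in capitals, on the plus strand.
EGR1, chr5:138465354-138465403: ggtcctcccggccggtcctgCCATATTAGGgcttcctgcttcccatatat
EGR1, chr5:138465376-138465425: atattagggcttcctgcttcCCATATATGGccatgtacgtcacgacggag

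ERK feedback genes, which ERK induces and which then dampen it, had 7 of 14 higher and 1 lower (median 0.349). The 7 became 4 without PIK75 replicate 2 and 4 without STA9090+PIK75 replicate 1. SPRY4, an inhibitor of receptor signalling, had 5.53, 6.85 and 5.58 CPM against 13.7, 12.1 and 12.8 (1.10, SE 0.131, adjusted p 4e-06, edgeR). The phosphatase DUSP5 rose by 0.46 and the transcription factor ETV5 by 0.41.

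Receptors and components of the pathways that the drugs address moved in both directions. FGFR4, a growth factor receptor, had 27.4, 26.1 and 31.7 CPM in PIK75 and 8.21, 11.4 and 10.7 in STA9090+PIK75, a fall of 1.48 (SE 0.126, adjusted p 8.3e-08, edgeR). FGFR1 fell by 0.47, whereas EGFR had 10.7, 10.2 and 9.38 CPM against 15.4, 19.9 and 21.8 and rose by 0.92 (adjusted p 1.52e-05, edgeR). Of 24 receptors and kinases known as HSP90 clients 5 were higher and 7 lower, where 11.3% and 14% of all genes were. The 5 became 3 when any single library other than PIK75 replicate 1 was left out, and 2 when the compared groups were fitted alone. Among 24 PI3K, AKT and mTOR components 1 was higher and 4 were lower, against 11.3% and 14% of all genes. TSC2, which restrains mTOR, had 102 ± 10.2 and 58.5 ± 2.47 CPM and fell by 0.80, and AKT1 fell by 0.48. The target of PIK75, PIK3CA, had 7.23 ± 0.342 and 7.36 ± 0.93 CPM (0.03, adjusted p 0.894, edgeR), and the regulatory subunit PIK3R1 had 8.07 ± 0.782 and 7.88 ± 0.803 (adjusted p 0.928, edgeR). Of 23 FOXO factors and targets 3 were higher and 6 lower, beside the same 11.3% and 14% of all genes. FOXO1 fell by 0.53 and SESN3, a brake on mTOR, by 1.07, while SOX4 and CITED2 rose by 0.66 and 0.77.

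Most genes of steroid production fell. Of 18 genes of steroidogenesis 12 were lower and 1 higher (median -0.446), against 14% of all genes lower. SCARB1 (ENSG00000073060.16, chr12:124776856-124882668, minus strand), the receptor that takes up cholesterol from HDL, had 1033, 994 and 1215 CPM in PIK75 and 537, 565 and 623 in STA9090+PIK75. The fall was 0.91 on the log2 scale (SE 0.0925, adjusted p 5.9e-07, edgeR), 1.88-fold. CYP17A1, which leads to cortisol and androgens, had 87.1, 83.0 and 81.4 CPM against 55.6, 51.1 and 53.4 (fell by 0.65, SE 0.0834). HSD3B2, another step of the same route, fell by 0.69, and CYP11A1, the first enzyme, by 0.54. SULT2A1, which sulphates DHEA, had 20.8, 24.5 and 20.1 CPM against 10.1, 9.12 and 11.4 and fell by 1.09 (adjusted p 1.81e-06, edgeR). In each of these 5 genes all STA9090+PIK75 libraries lay below all PIK75 libraries. PIK75 libraries were already below untreated cells in CYP17A1, with 83.8 ± 2.92 against 263 CPM, and in SCARB1, with 1081 ± 118 against 1716 CPM. PIK75 against untreated cells had 13 of the 18 lower, where 8.49% of all genes were higher and 10.2% lower. Both comparisons share the PIK75 libraries.

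STAR, which moves cholesterol into mitochondria, had 192, 186 and 204 CPM against 158, 165 and 162. The groups do not overlap and the fall was 0.26 (adjusted p 0.0179, edgeR), but the adjusted p was 0.0687 without PIK75 replicate 3, 0.0697 without STA9090+PIK75 replicate 1, 0.0565 without STA9090+PIK75 replicate 3 and 0.0623 without the filter on low counts. NR5A1, the master transcription factor of steroidogenic cells, had 489, 483 and 582 CPM against 388, 413 and 368 (fell by 0.41, adjusted p 0.0136, edgeR). Its adjusted p was 0.077 without PIK75 replicate 3 and 0.0655 without STA9090+PIK75 replicate 3.

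Adrenocortical identity genes had 11 of 17 lower (median -0.369) and 3 higher, 1 higher without PIK75 replicate 1 or without STA9090+PIK75 replicate 2. The potassium channel KCNK3, which sets the resting potential of these cells, had 1172, 1193 and 1207 CPM in PIK75 and 645, 660 and 672 in STA9090+PIK75. The libraries of each group were close together, and the fall was 0.85 (SE 0.0879, adjusted p 6.76e-07, edgeR). AGTR1, the angiotensin II receptor, had 96.9, 100 and 84.0 CPM against 45.4, 43.6 and 49.4 and fell by 1.02 (SE 0.0702, adjusted p 7.12e-09, edgeR). The potassium channel KCNJ5 fell by 0.69 and the endocytic adaptor DAB2 by 0.56. In untreated cells KCNK3 had 896 CPM and AGTR1 58.1, so that both were lower in STA9090+PIK75 and higher in PIK75 than in untreated cells. The PIK75 libraries are again shared by the fall and by the comparison with untreated cells. Genes of cAMP signalling, the route of ACTH, had 0 of 21 higher and 4 lower, where 14% of all genes were lower, and 7 lower with GC content taken out, and PDE7B, which degrades cAMP, fell by 0.60.

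Many genes of lipid synthesis fell. Of 13 genes of fatty acid synthesis 8 were lower and 0 higher (median -0.483). FASN, the fatty acid synthase, had 1038, 998 and 1299 CPM against 602, 590 and 546 (fell by 0.94, SE 0.136, adjusted p 3.58e-05, edgeR), with PIK75 replicate 3 the highest. The desaturase SCD had 1078, 1006 and 907 CPM against 655, 601 and 714 (fell by 0.60), and ACACA, which makes malonyl-CoA, fell by 0.58 and the desaturase FADS1 by 0.59. Of 25 genes of cholesterol synthesis and uptake 12 were lower and 1 higher (median -0.213). LSS, which closes the sterol rings, fell by 0.73, EBP, a later enzyme, by 0.57, INSIG1, a sterol sensor, by 0.51, and SREBF2, the transcription factor of the pathway, by 0.50.

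Matrix and basement membrane genes had the lowest median of the lists. Of 21 matrix genes 13 were lower and 2 higher, with a median log2 fold change of -0.684. HSPG2 (ENSG00000142798.20, chr1:21822245-21937297, minus strand), which encodes perlecan, had 176, 165 and 187 CPM in PIK75 and 52.6, 60.1 and 61.0 in STA9090+PIK75. Each group was tight, and the fall was 1.60 on the log2 scale (SE 0.095, adjusted p 1.66e-09, edgeR), 3.04-fold. COL4A2, a chain of basement membrane collagen IV, had 222, 191 and 217 CPM against 78.4, 80.6 and 81.5 and fell by 1.39 (SE 0.0862, adjusted p 2.03e-09, edgeR). COL18A1 had 20.2 ± 2.11 and 8.15 ± 1.06 CPM and fell by 1.31. COL11A1 and VCAN, of fibrillar matrix and proteoglycan, fell by 1.56 and 1.43.

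COL1A1 fell by 2.87 (SE 0.262, adjusted p 2.04e-07, edgeR), from 5.97, 4.57 and 7.44 CPM to 0.625, 0.662 and 1.11. It is also a fibroblast marker and the only 1 of 7 that passed the count filter. The 7 summed to 4.95 to 8.02 CPM in PIK75 and 0.713 to 1.33 in STA9090+PIK75, and LUM was at 0 in all 6 libraries. COL1A1 is thus a member of both lists and makes up most of that sum. Of the cytoskeleton and adhesion list 5 of 24 were lower and 2 higher, where 14% of all genes were lower and 11.3% higher. The non-muscle myosin MYH9 had 585, 559 and 670 CPM against 293, 261 and 317 (fell by 1.06, SE 0.103). The actin cross-linker FLNA fell by 0.67 and ACTA2 by 0.86. ACTA2 had a mean of 12.3 CPM in untreated cells, 23.9 in PIK75 and 13.2 in STA9090+PIK75, and FLNA had 1983, 1908 and 1198. MYH14, a relative of MYH9, fell by 1.42.

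Transcript GC content moved with these differences. Over 9771 protein-coding genes with at least 5 CPM, the median log2 fold change was 0.0755 in the fourth decile of GC content and -0.226 in the highest, where 39 genes were higher and 376 lower. The Spearman correlation across these genes, which are not independent replicates, was -0.251. For STA9090 against untreated cells it was -0.542, and for STA9090+BGT226 against BGT226 it was -0.3. The -0.542 includes STA9090 replicate 1 and untreated replicate 2, and the -0.251 includes PIK75 replicate 3, libraries that stood apart in GC content. How far single libraries set these correlations was not tested. The median GC content was 57.9% in the matrix list, 55.2% in adrenocortical identity, 49% in steroidogenesis and in heat shock genes, and 48.3% over all these genes. With each library's trend on GC content taken out, 14 matrix genes, 12 of steroidogenesis, 12 of adrenocortical identity and 8 of fatty acid synthesis were lower, and 16 heat shock genes were higher.

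**Figure D4:**
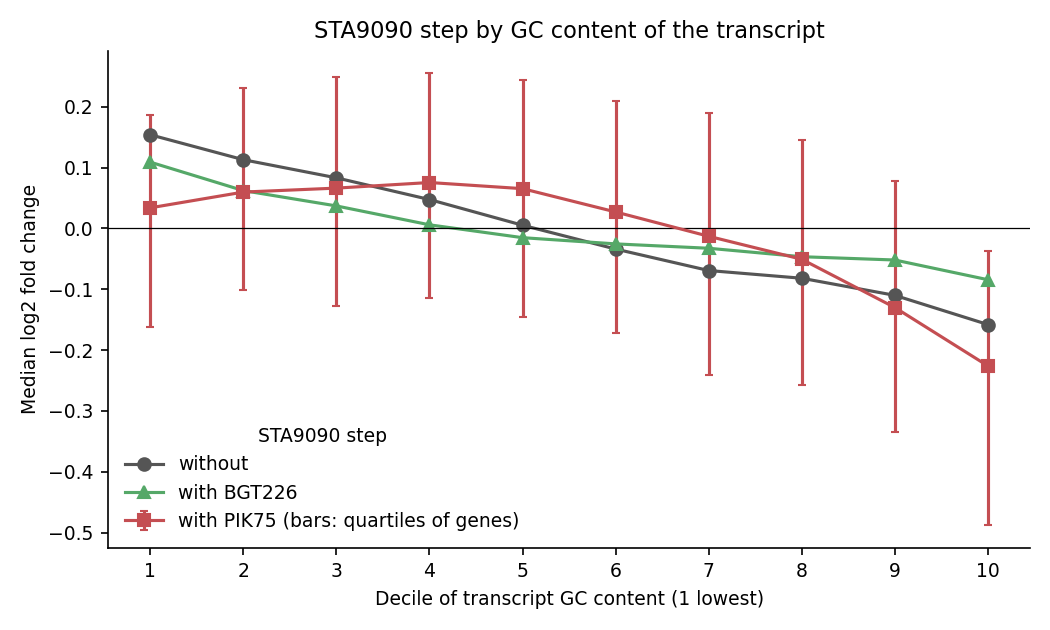
Median log2 fold change (vertical axis) by decile of transcript GC content (horizontal axis, 1 lowest) for STA9090 added to PIK75 (red squares, bars from the lower to the upper quartile of genes), to no drug (grey circles) and to BGT226 (green triangles). All 3 lines end below 0 in the highest decile, at -0.226, -0.158 and -0.0843.

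Genes of the IGF axis, imprinting and WNT signalling, which mark adrenocortical carcinoma, were also more often lower. Of 17 imprinted and IGF genes 9 were lower and 2 higher. IGF2, the growth factor overexpressed in this tumour, had 4682, 4341 and 5133 CPM against 3548, 3072 and 3296 and fell by 0.51 (SE 0.0905, adjusted p 0.000293, edgeR). Its receptor IGF1R fell by 0.39, the IGF carrier IGFBP2 by 0.99, and the imprinted PEG10, PEG3 and non-coding MEG3 by 0.77, 0.74 and 0.93. Of 17 WNT feedback targets 9 were lower and 1 higher. PIK75 against untreated cells, with the same PIK75 libraries, had 7 of the 17 higher and 0 lower, where 8.49% of all genes were higher. FZD7 had a mean of 48.3 CPM in untreated cells, 70.6 in PIK75 and 46.8 in STA9090+PIK75, and CTNNB1 had 568, 585 and 451. CTNNB1, which encodes beta-catenin, had 581, 583 and 592 CPM against 434, 460 and 459 (fell by 0.38, adjusted p 0.00163, edgeR), the receptor FZD7 fell by 0.59 and the feedback inhibitor NKD1 by 0.37.

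Neuroendocrine and neuronal markers, some of which this tumour type expresses, had 7 of 15 lower and 1 higher. NEFL, a neurofilament, had 47.9, 47.2 and 53.3 CPM against 21.2, 21.5 and 24.2 and fell by 1.15 (SE 0.0827, adjusted p 1.32e-08, edgeR), and NCAM1 and STMN3 each fell by 0.66. Of 17 circadian genes 10 were lower and 1 higher. The clock repressor NR1D1 had 25.4, 21.3 and 26.5 CPM against 12.2, 9.71 and 10.7 (fell by 1.17, adjusted p 8.8e-08, edgeR), and the output factors DBP and TEF fell by 0.83 and 1.09. The labels do not say whether cultures were collected at the same hour. Of 17 genes of MHC class I and antigen presentation 9 were lower and 0 higher (median -0.41). HLA-B had 31.2 ± 4.53 and 19.8 ± 2.13 CPM (fell by 0.65), and reads of near copies in this family can be divided among them. TAP2, a peptide transporter, fell by 0.63.

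Of 30 genes of G2/M and mitosis 10 were lower and 1 higher (median -0.111), and 6 were lower without PIK75 replicate 3. PIK75 against untreated cells, with the same PIK75 libraries, had 14 of the 30 higher and 0 lower (median 0.249), where 8.49% of all genes were higher. Mean CPM in untreated cells, PIK75 and STA9090+PIK75 was 152, 184 and 147 for CCNB1, and 80.3, 92.7 and 61.0 for KIF20A. KIF20A, a motor of cytokinesis, had 90.3, 95.5 and 92.2 CPM against 61.3, 56.9 and 64.7 (fell by 0.60, adjusted p 8.7e-06, edgeR), the centromere histone CENPA fell by 0.71, cyclin B1, CCNB1, by 0.32 and the kinase PLK1 by 0.31. MKI67, the proliferation marker, had 285 ± 8.36 and 221 ± 23.1 CPM and fell by 0.37 (adjusted p 0.0199, edgeR). Its adjusted p was 0.059 without PIK75 replicate 3, 0.0776 without STA9090+PIK75 replicate 1 and 0.0879 without STA9090+PIK75 replicate 2. Of 31 genes of G1/S and replication 4 were higher and 3 lower (1 lower without STA9090+PIK75 replicate 2), near the 11.3% and 14% of all genes, with MCM10, which starts replication, up by 0.40 and the clamp loader RFC4 by 0.49. The CDK inhibitors were lower too: CDKN1A (p21) had 81.4, 77.5 and 81.3 CPM against 44.8, 44.6 and 48.4 and fell by 0.80 (SE 0.0817, adjusted p 6.09e-07, edgeR), CDKN1B by 0.35 and CDKN2C by 0.43, the 3 of 7 that passed.

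Of 16 genes of the BCL2 family, the regulators of apoptosis, 0 were called in edgeR in either direction. MCL1, a survival factor, had 121 ± 7.63 and 115 ± 4.84 CPM (-0.08, adjusted p 0.481, edgeR). BAD, an opponent of survival factors, had 31.3 ± 1.57 and 24.5 ± 2.17 CPM (-0.36, adjusted p 0.0619, edgeR), with an adjusted p of 0.015 in a fit of the compared groups alone. P-TEFb, the kinase that releases paused RNA polymerase II, and other factors of elongation had 8 of 24 higher and 1 lower, 5 higher without STA9090+PIK75 replicate 1. The cyclin CCNK had 43.0, 43.9 and 40.0 CPM against 66.2, 52.4 and 57.3 (0.47, adjusted p 0.000305, edgeR), and its partner kinase CDK12 rose by 0.36. HEXIM1, the inhibitor of P-TEFb, had 57.8 CPM in untreated cells, 20.3 ± 2.14 in PIK75 and 25.6 ± 2.11 in STA9090+PIK75 (0.34, adjusted p 0.00823, edgeR). That adjusted p was 0.0686 without PIK75 replicate 2 and 0.0533 without STA9090+PIK75 replicate 1.

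Several of the largest changes belonged to no list. Among the rises, the solute carrier SLC35F2 had 6.86, 7.08 and 5.33 CPM against 15.8, 14.8 and 14.9 (1.23, SE 0.126, adjusted p 6.09e-07, edgeR). The inflammatory caspase CASP4 had 3.61 ± 0.269 and 8.35 ± 0.458 CPM (1.20), the muscle enolase ENO3 rose by 1.22, the tetraspanin TSPAN33 by 1.16, the unconventional myosin MYO5C by 1.05, osteopontin, SPP1, by 1.05 and PTRHD1 by 1.04. The interferon-induced IFIT3 rose by 1.04. It was the 1 of 19 interferon-response genes called higher, against 11.3% of all genes, and 2 were lower, against 14%, but 0 without STA9090+PIK75 replicate 1 or with the compared groups fitted alone, and 1 without PIK75 replicate 1, PIK75 replicate 2 or STA9090+PIK75 replicate 3. Among the falls, ABLIM1, an actin-binding protein, had 22.9, 24.1 and 18.9 CPM against 6.43, 6.70 and 8.14 (fell by 1.63, SE 0.158, adjusted p 4.2e-07, edgeR). The cannabinoid receptor CNR1 had 57.3, 62.9 and 59.8 CPM against 19, 22.7 and 21.6 and fell by 1.5 (SE 0.0876, adjusted p 1.66e-09, edgeR). RASGRF1, an exchange factor for RAS, fell by 1.5, the adhesion receptor ADGRB1 by 1.60, ANKFN1 by 1.62, the co-repressor TLE2 by 1.45 and FXYD7, a regulator of the sodium pump, by 1.42. CNR1, RASGRF1 and ADGRB1 had 29.7, 9.71 and 10.8 CPM in untreated cells and 60.0 ± 2.81, 18.1 ± 0.931 and 29.6 ± 4.88 in PIK75, and STA9090+PIK75 lay at 21.1 ± 1.88, 6.42 ± 0.424 and 9.77 ± 0.654. These PIK75 libraries are the same ones from which the falls were measured, and picking large falls favours genes that are high in them.

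The study also holds STA9090 without a PI3K inhibitor and STA9090 with BGT226, which allows the step made by STA9090 to be compared across settings with no shared library. STA9090 against untreated cells changed 448 genes (2.84%, 1.16% higher and 1.68% lower), and STA9090+BGT226 against BGT226 changed 424 (2.69%, 0.988% higher and 1.7% lower). The difference between steps was tested directly, and 9.27% and 9.75% of the genes passed. Both differences contain the same STA9090+PIK75 and PIK75 libraries, so a gene that passes in both is not found independently. Against the step without a PI3K inhibitor, 559 genes (3.54%) had a more positive step with PIK75 and 904 (5.73%) a more negative one, and against the step with BGT226 the counts were 580 (3.67%) and 959 (6.07%). The 559 became 344 without STA9090+PIK75 replicate 1 and 294 when the 4 groups were fitted alone, the 904 became 515 in that fit, and the 959 became 617 without BGT226 replicate 3. The 580 became 357 without STA9090+PIK75 replicate 1, 374 without BGT226 replicate 2, 379 without BGT226 replicate 3 and 956 with GC content taken out. Across the 15787 genes the step with PIK75 had a Spearman correlation of 0.234 with the step without it and 0.228 with the step with BGT226, given as a description since genes are not independent.

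HSP90AA1 rose in all 3 settings, by 0.61 without a PI3K inhibitor, 0.63 with BGT226 and 0.89 with PIK75, and the differences between steps did not pass (0.28, adjusted p 0.232, and 0.26, adjusted p 0.263, edgeR). The step of HSPA8 differed: 0.03 without, -0.13 with BGT226 and 0.56 with PIK75, a difference of 0.54 (SE 0.119, adjusted p 0.00713) and of 0.70 (SE 0.12, adjusted p 0.000829, edgeR). Of the 24 heat shock genes, 6 had a more positive step with PIK75 than without and 6 a more positive one than with BGT226, and 0 a more negative one.

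Steroidogenesis differed in the other direction. Of its 18 genes 7 had a more negative step with PIK75 than without, and 9 than with BGT226, with 0 more positive in either. The step of HSD3B2 was 0.03 without, 0.72 with BGT226 and -0.69 with PIK75, a difference of -0.72 (adjusted p 0.00325) and of -1.41 (adjusted p 5.47e-06, edgeR). CYP17A1 had -0.07, 0.52 and -0.65, and differed by -0.58 (adjusted p 0.00316) and -1.17 (adjusted p 5.38e-06, edgeR). The matrix list had 9 of 21 more negative and 1 more positive against the step without, and 13 and 2 against the step with BGT226. HSPG2 fell by 0.48 without, had a step of 0.07 with BGT226, and fell by 1.60 with PIK75, differences of -1.12 (adjusted p 4.06e-05) and -1.67 (adjusted p 5.81e-07, edgeR). For HLA-B the step was -1.12 without, -1.26 with BGT226 and -0.65 with PIK75, a difference of 0.47 (adjusted p 0.076) and of 0.61 (adjusted p 0.0209, edgeR). The last adjusted p was 0.0522 without PIK75 replicate 1, 0.0547 without BGT226 replicate 1, 0.0712 without STA9090+PIK75 replicate 2 and 0.0555 without STA9090+BGT226 replicate 2. Of 17 circadian genes 7 were lower after STA9090 in each of the other settings, and 2 had a more negative step with PIK75 than without. Of 21 chaperones of the endoplasmic reticulum 13 were lower after STA9090 with BGT226 (median -0.356) and 3 without a PI3K inhibitor, beside the 6 with PIK75. Against the step with BGT226, 6 had a more positive step with PIK75 and 1 a more negative one. Against the step without, 0 were more positive and 2 more negative.

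**Figure D5:**
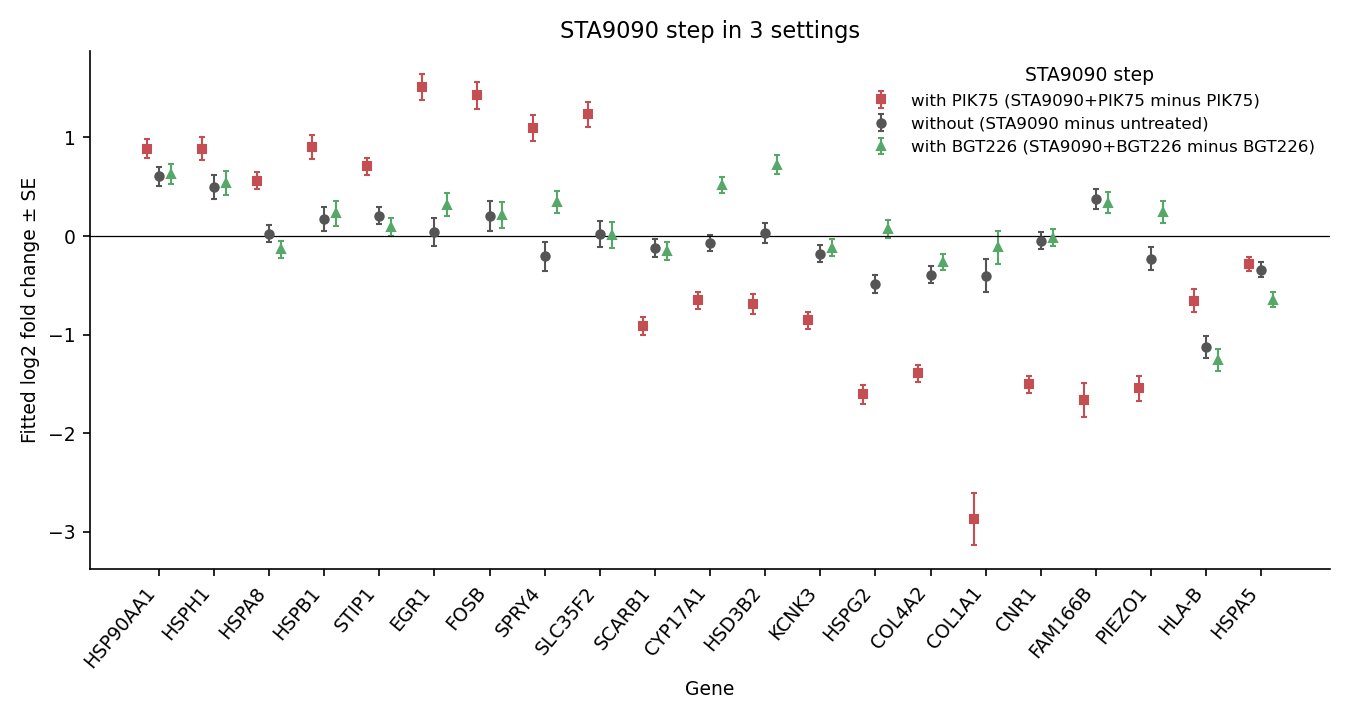
Fitted log2 fold change ± SE made by STA9090 in the presence of PIK75 (red squares), with no PI3K inhibitor (grey circles) and in the presence of BGT226 (green triangles) for 21 genes. HSP90AA1 and HSPH1 rise in all 3 settings, EGR1, FOSB and SLC35F2 stand above the others with PIK75, and CNR1, FAM166B and COL1A1 stand below them.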

How the data were processed

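Expected counts, without normalization, were deposited by the authors for each gene in 18 libraries; RSEM 1.3.1, STAR 2.7.0f, cutadapt 1.18, bcl2fastq 2.20 and hg38 are named in the submitters' processing notes. No source used here gives the annotation release or counting strand, so overlapping and antisense genes are uncertain. Positions, gene types and transcript GC content (that of each gene's longest transcript) came from GENCODE 29.

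Counts were rounded and filtered (filterByExpr, minimum count 10, minimum total 15). edgeR 4.0.16 (R 4.3.3) fitted all 18 libraries with TMM, a mean per group and no covariate, and its quasi-likelihood test was adjusted by Benjamini-Hochberg over 15787 genes with a threshold of 0.05. SE is the log2 fold change over the square root of F. The fit was tested on simulated data. Library totals, 10.24 to 21.13 M, set the precision of low genes.

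Named genes were the 14 largest rises and 14 largest falls (protein-coding, 5 CPM, groups that do not overlap), up to 4 members of each of 48 lists by adjusted p, 25 fixed genes and the 5 largest differences between steps in each direction; the text names some of these, and some are not reported here. Members and lists were chosen with earlier results of these data known. Alternatives were RLE factors, a looser and a stricter filter, DESeq2 1.42.0, a block for the replicate number, only the groups compared, abundant transcripts left out, each library left out and, chosen after seeing the data, a GC offset.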

Additional observations from a re-analysis of the deposited data

Results flagged for a closer look

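The step made by STA9090 differed between settings, by a test of the difference itself, for each of the following genes, which are among the largest differences in protein-coding genes with a mean of at least 5 CPM over all libraries of the groups in the contrast, not over the 6 libraries alone. CU639417.1 was at 0 in all 3 STA9090+PIK75 and all 3 untreated libraries, and its difference is not given. Values are differences of fitted log2 steps, with edgeR's adjusted p.

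Against the step without a PI3K inhibitor, EGR1 was more positive with PIK75 by 1.47 (adjusted p 0.00013) and SPRY4 by 1.3 (adjusted p 0.00045). EGR1 had 13.5 ± 1.22 CPM in untreated cells and 14 ± 1.77 with STA9090, and SPRY4 had 5.43 ± 0.818 and 4.73 ± 0.512. FOSB differed by 1.22 (adjusted p 0.000982) and SLC35F2 also by 1.22 (adjusted p 0.000428).

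In the negative direction COL1A1 differed by -2.47 (adjusted p 0.00013) and FAM166B by -2.04 (adjusted p 5.52e-06). FAM166B had 17.4 ± 2.1 CPM in untreated cells and 22.6 ± 1.6 with STA9090, but 5.88 ± 0.494 with PIK75 and 1.86 ± 0.154 with STA9090+PIK75. MUCL1, a secreted mucin-like protein, differed by -1.51 (adjusted p 0.000513). DMD, which encodes dystrophin, differed by -1.47 (adjusted p 0.000428): it had 5.77 ± 0.313 CPM in untreated cells, 10.9 ± 0.439 with STA9090, 10.9 ± 1.59 with PIK75 and 7.42 ± 0.468 with STA9090+PIK75.

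Against the step with BGT226, SLC35F2 was more positive by 1.23 (adjusted p 0.00021), FOSB by 1.21 (adjusted p 0.000393) and EGR1 by 1.19 (adjusted p 0.000192). EGR1 had 34.6 ± 2.65 CPM with BGT226 and 43.4 ± 6.49 with STA9090+BGT226, close to its 39.0 ± 4.02 in STA9090+PIK75. C8orf33 differed by 1.17 (adjusted p 1.36e-05) and HMOX1, a heme-degrading enzyme of the oxidative stress response, by 1.15 (adjusted p 0.00505).

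COL1A1 differed by -2.76 (adjusted p 2.05e-05), FAM166B by -2.00 (adjusted p 6.01e-06), the homeobox gene CUX2 by -1.95 (adjusted p 0.000329), the mechanosensitive channel PIEZO1 by -1.79 (adjusted p 3.01e-06) and the protease ADAMTS7 by -1.68 (adjusted p 1.36e-05). PIEZO1 had 19 ± 1.56 CPM with BGT226 and 22.5 ± 2.6 with STA9090+BGT226, but 21.5 ± 1.29 with PIK75 and 7.33 ± 1.24 with STA9090+PIK75.

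Other genes named in the report differed too. HSPA8 was more positive with PIK75 by 0.54 against the step without and by 0.70 against the step with BGT226. In the same order, HSD3B2 differed by -0.72 and -1.41, CYP17A1 by -0.58 and -1.17 and HSPG2 by -1.12 and -1.67. HLA-B differed by 0.61 against the step with BGT226 (adjusted p 0.0209, edgeR).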

How the results depend on the processing

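The counts of 1784 higher and 2209 lower genes stayed within 1.5 times under the alternatives run, from 1460 (DESeq2) to 2071 (GC offset) higher and from 1985 (compared groups alone) to 2346 (GC offset) lower, and 1300 to 1496 and 1776 to 1929 with 1 library left out. No call was opposite in sign, and 73.4% to 99.1% of the 3993 called genes were also called. Of 143 genes followed, 134 kept their call and direction under all alternatives that tested them; STAR, NR5A1, MKI67 and HEXIM1 are given with their values above, as are HSP90AB1, HSF1 and BAD, which passed under some, and for DMD and MLST8 the call was lost under at least 1. Of the 27 differences between steps named above with their values that passed the threshold, 26 kept their call. The exception was HLA-B against the step with BGT226. Counts of differences between steps moved more: fitted with the compared groups alone, 294 more positive and 515 more negative against the step without a PI3K inhibitor, and with the GC offset 956 more positive against the step with BGT226. With 1 library left out they ran from 344 to 571 and 605 to 894 against the step without, and from 357 to 566 and 617 to 874 against the step with BGT226. The cause was not tested, except that leaving out a library leaves fewer samples. With the replicate number as a block (numbers the labels do not tie to a shared culture or day, and whose libraries' deviations correlated at -0.0372, -0.118 and -0.269), there were 1727 higher and 2177 lower genes, 508 and 814 differences against the step without, and 534 and 904 against the step with BGT226. With 3 libraries a group, differences in genes of few counts were not detectable unless large. Small counts against a list's direction, such as the 1 higher gene of steroidogenesis and the 2 of matrix, became 0 and 1 without single libraries.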
